A study of Rattus norvegicus with 13 samples.

Results

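Facial skin-derived precursors (SKPs) were compared with ventral trunk SKPs on Affymetrix Rat Gene 1.0 ST arrays. SKPs are precursor cells that grow as floating spheres from dissociated dermis. Both groups came from adult Sprague Dawley rats and had been passaged 2 times, and each held 3 isolates that the labels call independent. The 6 arrays were chosen by their titles from 13 in all, and the rest were 3 arrays of dorsal trunk SKPs and 4 of mesenchymal stromal cells (MSCs) of the same strain and passage number. No treatment or altered gene is named for any group. Each gene stood for 1 probe set, the one with the highest mean over the 13 arrays among those with exactly 1 gene symbol, which gave 14506 genes. Levels are log2 values, and a difference is the facial mean minus the ventral mean on that scale.

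The dermis of the face descends from the cranial neural crest, that of the ventral trunk from lateral plate mesoderm and that of the back from somites. Hox genes encode homeodomain transcription factors that mark position along the body axis, are off in most of the neural crest of the face, and stay on in cultured fibroblasts of the trunk. Pax, Alx, Msx and Lhx factors pattern the face, and T-box factors pattern limbs and body wall. The labels give skin regions, so the embryonic origin of the isolates was not measured.

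The mean of 15 SKP and dermal precursor markers was between 9.63 and 9.87 on facial arrays and between 9.67 and 9.76 on ventral arrays. Single markers differed within that mean: Pax3 was 4.66 higher and Nes 2.74 lower in facial SKPs (limma adjusted p = 5.52e-06 and 0.0142), and the other 13 did not pass the test described below. Pdgfra, a receptor of dermal mesenchyme, was at 11.22, 12.01 and 11.67 on facial arrays 1 to 3 and at 11.10, 11.02 and 11.05 on ventral arrays 1 to 3. Sox2, a stem cell factor that SKPs share with dermal papilla, was at 7.50, 6.63 and 6.20 on facial arrays and at 6.66, 7.51 and 7.06 on ventral arrays, which overlapped (difference -0.30, adjusted p = 0.658 by limma). The mean of 29 macrophage and leukocyte markers was 7.44, 6.11 and 9.71 on facial arrays 1 to 3, against 5.07, 5.05 and 5.30 on ventral arrays, so facial array 3 stood apart from the others. A fit with that mean as a covariate is therefore given beside calls and some of the counts that it changes, under the name leukocyte covariate. In RNA of whole cultures, fewer cells of a type and less RNA per cell cannot be told apart.

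Of the 14506 genes, 958 (6.60%) passed the test between facial and ventral SKPs, which was limma's moderated test at a Benjamini-Hochberg adjusted p under 0.05. In facial SKPs 326 of them (2.25%) were higher and 632 (4.36%) were lower. A log2 difference of at least 1 was reached by 322 of the called genes (2.22%), 153 higher (1.05%) and 169 lower (1.17%). The median difference over all genes was 0.014. Levels of the 3 facial arrays did not overlap with those of the 3 ventral arrays in 5278 genes (36.4%). The median SD over genes was 0.15 on facial arrays and 0.12 on ventral arrays. With 3 arrays a group their number limits the precision, and p-values measure the spread between isolates. The count of 958 was 610 without facial array 1, 515 without facial array 3, 390 without ventral array 1, 479 without ventral array 2 and 394 without ventral array 3. With the leukocyte covariate it was 224 (73 higher, 151 lower). Some calls it ended kept their difference: Hoxb3 had -0.99 without the covariate and -1.0 with it, Vcam1 3.49 in both and Dkk2 3.24 and 3.38. Others shrank, Mrc1 from 5.54 to 1.98 and Tnn from 4.92 to 2.75. The covariate itself was higher on facial arrays, so a lost call alone does not show a dependence on leukocyte signal. Dorsal array 3, which enters through the shared estimate of the spread, stood apart, with a mean of the SKP markers of 8.32 against 9.52 and 9.57 on dorsal arrays 1 and 2. Without it 1416 genes passed (518 higher, 898 lower). The arrays carry no detection call, so levels at or below background are given as measured.

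**Figure D1:**
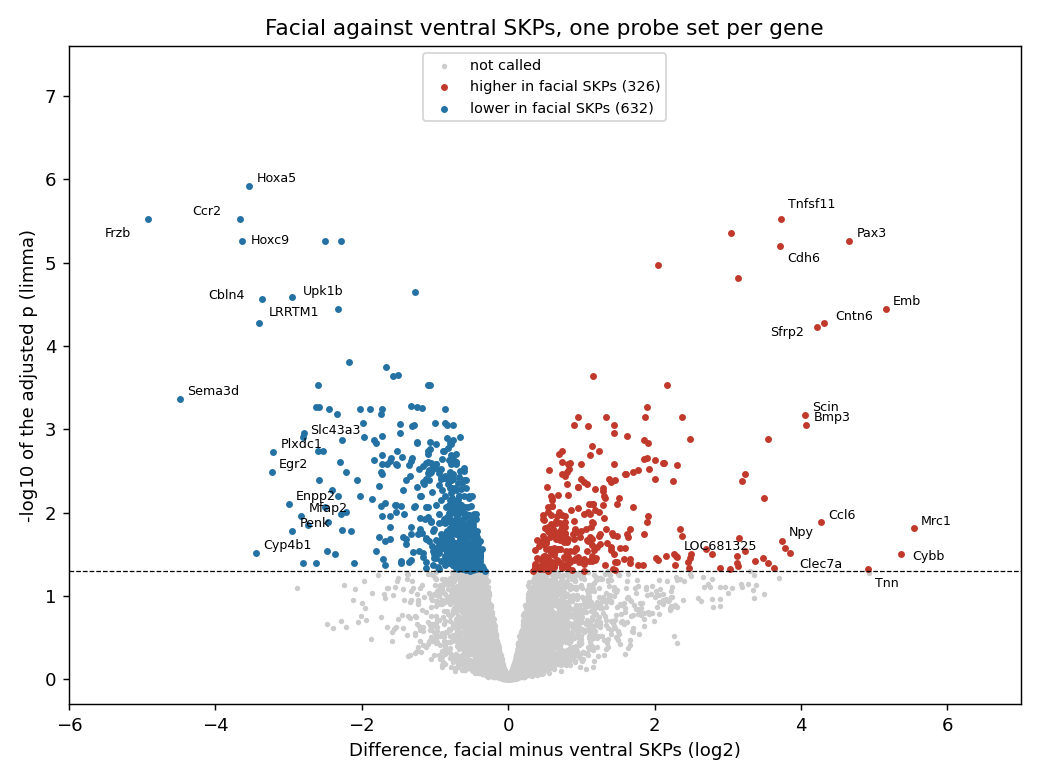
Each point is 1 of the 14506 genes, with the difference between facial and ventral SKPs (log2) on the horizontal axis and -log10 of limma's adjusted p on the vertical axis; the dashed line is an adjusted p of 0.05. Red points are the 326 genes higher in facial SKPs, blue points the 632 lower ones and grey points the genes that did not pass, and names mark the 15 largest differences of each direction under the rule for named genes.

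Of 23 craniofacial patterning factors measured, 3 rose (Alx1, Msx1 and Lhx6) and 2 fell (Alx4 and Irx5) in facial SKPs. That was 21.7% called, against 6.60% of all genes, with a median of -0.07 (all genes 0.014). Pax3 and Pou3f4, which are not on that list, rose too. Pax3, a paired box factor of neural crest and muscle precursors, was higher in facial SKPs. It was at 8.50, 9.20 and 8.34 on facial arrays, against 3.85, 4.02 and 4.17 on ventral arrays, where it lay near background (3.84 in facial and 3.79 in ventral SKPs, the 25th percentile of all gene means). The groups lay far apart, with a difference of 4.66 (SE 0.30, 25.3-fold, adjusted p = 5.52e-06). Pou3f4, a POU homeodomain factor needed for the mesenchyme of the inner ear, was at 5.94, 6.40 and 6.31 on facial arrays and at 3.34, 3.17 and 2.99 on ventral arrays. All facial arrays were above all ventral ones, which lay below background (difference 3.05, SE 0.18, adjusted p = 4.38e-06). Alx1, whose loss in humans causes clefts of the midface, was at 6.93, 5.90 and 5.81 against 3.52, 4.18 and 3.84 on ventral arrays (2.37, SE 0.28, adjusted p = 0.000721). Msx1, a homeobox factor of palate and teeth, was at 8.61, 7.62 and 7.38 on facial arrays and at 6.04, 6.0 and 5.86 on ventral arrays (1.90, SE 0.27, adjusted p = 0.00219). Alx1 and Msx1 were both highest on facial array 1, and neither overlapped between groups. Lhx6, a LIM homeobox factor of the jaw arch mesenchyme, was at 6.80, 7.09 and 6.26 on facial arrays against 5.29, 5.28 and 5.23 on ventral arrays (1.45, SE 0.18, adjusted p = 0.00089). These 5 calls held in every alternative fit that was run.

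Start regions are shown for the homeobox and T-box genes with the largest differences, up to 4 in each direction, where RefSeq's table held an entry. Pax3, Pou3f4, Alx1 and Msx1 were higher in facial SKPs and Tbx5 was lower, so they were chosen by their values. Each is the 250 bases before the annotated start of the gene, read along the gene, from RefSeq's annotation of assembly GRCr8. Capitals mark CCAAT or its reverse complement ATTGG, a motif chosen after the sequences had been read, which 34.0% of 33469 such regions hold on either strand. The regions are chr9:87112532-87112781 (minus strand) for Pax3, chrX:79974558-79974807 (plus) for Pou3f4, chr7:40063779-40064028 (minus) for Alx1, chr14:77185552-77185801 (plus) for Msx1 and chr12:42395360-42395609 (minus) for Tbx5.
Pax3: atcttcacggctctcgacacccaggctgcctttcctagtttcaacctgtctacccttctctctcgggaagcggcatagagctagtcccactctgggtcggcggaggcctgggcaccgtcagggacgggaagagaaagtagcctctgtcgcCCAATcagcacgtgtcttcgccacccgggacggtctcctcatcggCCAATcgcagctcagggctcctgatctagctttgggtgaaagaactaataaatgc
Pou3f4: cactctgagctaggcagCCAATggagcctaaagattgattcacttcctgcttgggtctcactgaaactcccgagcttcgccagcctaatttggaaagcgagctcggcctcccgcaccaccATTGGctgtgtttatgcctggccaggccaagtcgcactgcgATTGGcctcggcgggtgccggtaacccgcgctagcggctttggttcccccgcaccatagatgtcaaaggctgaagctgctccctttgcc
Alx1: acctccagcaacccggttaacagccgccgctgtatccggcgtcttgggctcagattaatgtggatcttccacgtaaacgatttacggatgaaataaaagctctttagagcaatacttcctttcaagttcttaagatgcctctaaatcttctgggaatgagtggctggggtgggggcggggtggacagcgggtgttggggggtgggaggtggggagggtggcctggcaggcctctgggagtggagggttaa
Msx1: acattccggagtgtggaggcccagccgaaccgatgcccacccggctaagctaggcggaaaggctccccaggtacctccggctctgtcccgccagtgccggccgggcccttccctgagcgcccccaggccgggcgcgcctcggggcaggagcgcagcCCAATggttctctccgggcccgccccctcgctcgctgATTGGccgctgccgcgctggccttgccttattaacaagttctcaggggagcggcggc
Tbx5: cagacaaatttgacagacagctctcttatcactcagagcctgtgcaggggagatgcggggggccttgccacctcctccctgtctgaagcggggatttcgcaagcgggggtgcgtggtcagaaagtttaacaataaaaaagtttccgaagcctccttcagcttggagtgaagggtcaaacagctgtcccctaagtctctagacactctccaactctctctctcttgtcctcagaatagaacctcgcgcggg
Pax3 held 2 copies of CCAAT, Pou3f4 held 3 and Msx1 held 2, while Alx1 and Tbx5 held 0. CG dinucleotides numbered 15 in the region of Pax3, 14 in Pou3f4, 10 in Alx1, 24 in Msx1 and 9 in Tbx5, beside a median of 5 over all regions (quartiles 2 and 15). The homeodomain motif TAATTA, the T-box motif AGGTGT and the TATA motif TATAAA were in none of the 5 regions on either strand. Over all regions the shares were 4.86%, 11.6% and 12.9%. The motifs do not overlap each other, and a match here is a run of letters, not a bound site. Of the 8 homeobox or T-box genes looked up, Hoxc9, Hoxa5 and Hoxc5 had no entry.

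Hox genes differed in the other direction. Of 11 anterior Hox genes measured, 5 fell and 0 rose (45.5% called, against 6.60% of all genes). Their median difference was -0.50 (all genes 0.014). Hoxa5 was at 3.47, 3.83 and 3.63 on facial arrays, at or below background, against 7.07, 7.40 and 7.07 on ventral arrays. No array came near the other group (-3.54, SE 0.16, adjusted p = 1.2e-06). No fold is given where a group's mean lay below background. Hoxc5 was at 3.08, 3.95 and 4.12 on facial arrays against 5.79, 5.58 and 5.88 on ventral arrays (-2.03, SE 0.35, adjusted p = 0.00626). Its neighbour in the cluster, Hoxc4, was at 5.0, 4.95 and 4.73 on facial arrays and at 6.54, 6.40 and 6.74 on ventral arrays (-1.67, SE 0.16, adjusted p = 0.000178). Both fell on every facial array. Hoxb3 (-0.99, adjusted p = 0.0029) and Hoxd4 (-0.84, adjusted p = 0.00089) fell by less. The call of Hoxb3 was lost with the leukocyte covariate (adjusted p = 0.0523, and 0.000387 to 0.0523 over the alternatives). The other 6 did not pass. Of these, Hoxb4 was at 5.95, 6.45 and 6.18 on facial arrays and 6.54, 6.86 and 6.63 on ventral arrays (-0.48, adjusted p = 0.069), and Hoxd1 had a difference of 0.37 (adjusted p = 0.0991).

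Among 8 posterior Hox genes 1 fell and 0 rose (12.5% called, against 6.60% of all genes). Hoxc9, a factor of the thoracic trunk, was at 3.60, 3.14 and 3.41 on facial arrays, below background, against 7.12, 6.94 and 6.99 on ventral arrays. The difference was -3.64 (SE 0.22, adjusted p = 5.46e-06), and the groups lay far apart. Of the other posterior genes, Hoxd9 did not pass (-0.53, adjusted p = 0.0677), and Hoxa11 was near background on all 6 arrays, at 3.60, 3.87 and 3.27 in facial SKPs, against 3.41, 3.13 and 3.57 in ventral SKPs. Of 3 central Hox genes, Hoxa7 fell (-0.64, adjusted p = 0.0397), with 4.63, 4.56 and 4.96 on facial arrays and 5.42, 5.55 and 5.10 on ventral arrays. That call was lost without facial array 1 (0.114) or 2 (0.116), ventral array 1 (0.137) or 2 (0.145), MSC array 1 (0.0548) or 2 (0.0553), in the fit of the 9 SKP arrays (0.0714) and with the leukocyte covariate (0.202), over a range of 0.00672 to 0.202. Hox proteins bind DNA with cofactors of the Pbx, Meis and Pknox families, of which 7 were measured. Of these 2 fell, Meis1 and Pknox1 (28.6%, against 6.60% of all genes). Meis1 was lower in facial SKPs at 7.57, 7.45 and 7.68, against 8.31, 8.23 and 8.44 in ventral SKPs, with no overlap (-0.76, SE 0.20, adjusted p = 0.0425). The adjusted p of Meis1 was 0.081 to 0.142 without any 1 of the 6 facial and ventral arrays, 0.0558 without dorsal array 2, 0.0514 without MSC array 2 and 0.305 with the leukocyte covariate, and it began at 0.0047 over the alternatives. Pknox1 fell by 0.46 (adjusted p = 0.0393), and had 0.067 to 0.138 without any 1 of those 6 arrays, 0.0527 without MSC array 1, 0.0538 without MSC array 4 and 0.297 with the covariate (lowest 0.00947). Pbx2 (0.33, adjusted p = 0.098) and Meis2 (0.90, adjusted p = 0.24) did not pass.

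Of 24 lateral plate and ventral body wall factors, 2 fell and 1 rose in facial SKPs. That was 12.5% called, against 6.60% of all genes, with a median of 0.05. Tbx5, the T-box factor of the forelimb and heart, was at 4.41, 4.01 and 4.03 on facial arrays and at 6.57, 6.36 and 6.05 on ventral arrays. All ventral arrays were above all facial ones (-2.18, SE 0.20, 4.52-fold, adjusted p = 0.000156). Irx5, an Iroquois factor that the craniofacial list holds too, was at 5.69, 5.21 and 5.79 against 6.67, 6.87 and 6.88 on ventral arrays (-1.24, SE 0.21, adjusted p = 0.00497). Osr2, a zinc finger factor of palate and limb, rose by 0.86 (SE 0.16, adjusted p = 0.00922), and lost the call with the leukocyte covariate (0.145, range 0.000547 to 0.145). General factors of skin and limb mesenchyme did not pass. Prrx1 was high on all arrays, at 12.02, 12.13 and 11.79 in facial SKPs, against 11.53, 11.67 and 11.56 in ventral SKPs (0.40, adjusted p = 0.628). Tbx15, a factor of trunk skin, was at 8.41, 8.88 and 8.66 in facial SKPs, against 8.10, 8.06 and 7.95 in ventral SKPs (0.61, adjusted p = 0.0562).

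On the craniofacial list Alx4 and Irx5 fell. Alx4, a paralogue of Alx1 that also patterns limb and hair, was at 7.92, 7.38 and 7.02 on facial arrays against 9.11, 9.18 and 9.01 on ventral arrays. So the facial arrays carried less of 1 Alx gene and more of the other (Alx4 -1.66, SE 0.25, adjusted p = 0.00259). The call of Alx4 was lost with the leukocyte covariate (0.0626, range 0.000242 to 0.0626). Dlx genes of the jaw lay near 0, with Dlx1 at 0.10, Dlx3 at -0.11 and Dlx5 at -0.07, and none of them passed. Neural crest factors numbered 21, of which 19% were called, against 6.60% of all genes (median 0.07). In facial SKPs 3 of them rose, Pax3, Cdh6 and Msx1, and 1 fell, the neural stem cell filament Nes. General neural crest factors overlapped: Twist1 was at 9.57, 9.26 and 8.94 in facial SKPs, against 9.08, 9.43 and 8.98 in ventral SKPs (0.09, adjusted p = 0.93), and Sox10 was at 5.19, 5.26 and 5.06 in facial SKPs, against 5.21, 5.53 and 5.25 in ventral SKPs (-0.16, adjusted p = 0.487). Tfap2b was at 6.47 on facial array 1, against 4.06 and 4.73 on facial arrays 2 and 3 and 3.91 to 4.05 on ventral arrays (1.13, adjusted p = 0.152).

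Nes was at 4.84, 5.12 and 4.41 on facial arrays and at 7.62, 7.42 and 7.57 on ventral arrays, which made it 6.70-fold lower in facial SKPs (-2.74, SE 0.55, adjusted p = 0.0142). The groups did not overlap. The call was lost without facial array 3 (0.0537), ventral array 1 (0.0554) or ventral array 3 (0.0544) and with the leukocyte covariate (0.181), over a range of 0.000903 to 0.181. Of 14 somite and dorsal dermis factors, Pax3 was the 1 that passed (7.14%, against 6.60% of all genes), and it is also on the neural crest list.

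**Figure D2:**
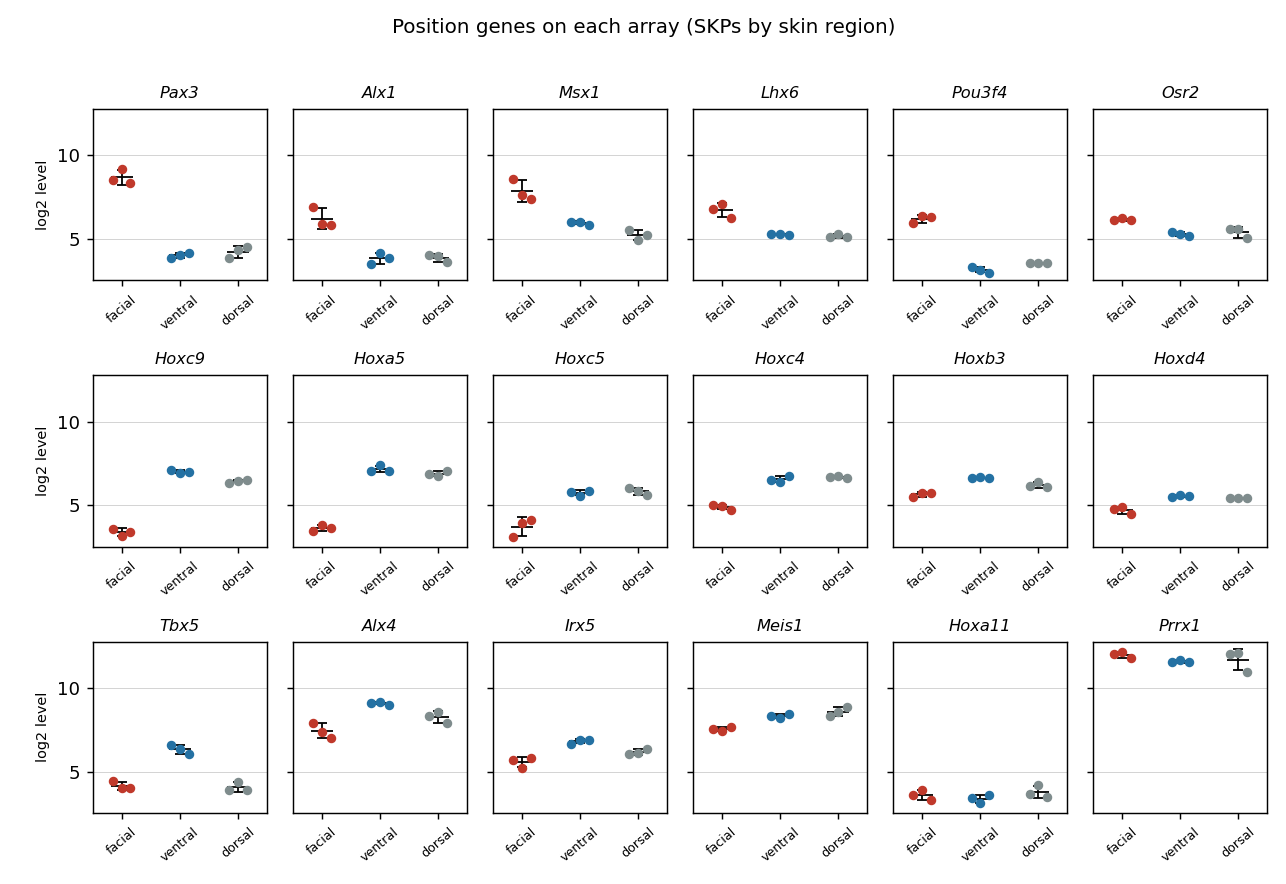
Log2 levels (vertical axis, 1 point per array) of 18 position genes in facial, ventral and dorsal SKPs (3 arrays each), with group means and SD as bars. Pax3, Alx1, Msx1, Lhx6 and Pou3f4 stand apart on facial arrays, the Hox genes from Hoxc9 to Hoxd4 are lowest on facial arrays, Tbx5 is high on ventral arrays alone, and Hoxa11 and Prrx1 did not pass the test.

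Dorsal SKPs, also from trunk skin, are set beside both groups for the genes above. The 3 comparisons share arrays, so each has its own values here. Facial minus dorsal SKPs had 182 called genes (1.25%), 115 higher (0.793%) and 67 lower (0.462%). Dorsal minus ventral SKPs had 886 (6.11%), 341 higher (2.35%) and 545 lower (3.76%). Without dorsal array 3 these counts were 145 and 900. Pax3 was at 3.85, 4.32 and 4.53 on dorsal arrays (facial minus dorsal 4.45, adjusted p = 1.09e-05; dorsal minus ventral 0.22, adjusted p = 0.738). Hoxa5 was at 6.85, 6.76 and 7.06 on dorsal arrays (facial minus dorsal -3.25, adjusted p = 3.19e-06; dorsal minus ventral -0.29, adjusted p = 0.343). Hoxc9 was at 6.36, 6.46 and 6.52 (facial minus dorsal -3.07, adjusted p = 2.18e-05; dorsal minus ventral -0.57, adjusted p = 0.163). For these genes the dorsal level was near the ventral one. Tbx5 was at 3.90, 4.40 and 3.89 on dorsal arrays, near the facial level (facial minus dorsal 0.09, adjusted p = 0.888; dorsal minus ventral -2.27, adjusted p = 0.000113). Of the 15 genes with the largest differences higher in facial SKPs, 7 passed in facial minus dorsal and 3 in dorsal minus ventral. Of the 15 largest lower ones, 2 passed in facial minus dorsal, Hoxc9 and Hoxa5, and 11 in dorsal minus ventral. These genes were chosen by their facial and ventral values, which enter both other comparisons. The choice thus partly sets these counts, and they do not place dorsal SKPs independently.

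Secreted Wnt modulators held the largest fall of all named genes. Of 17 measured, 2 rose and 2 fell (23.5% called, against 6.60% of all genes, median 0.01). Of 17 Wnt ligands 1 rose and 1 fell (11.8%), and 0 of 15 Wnt receptors passed. Frzb, a secreted Frizzled-related protein that binds Wnts, was at 4.92, 5.23 and 5.33 on facial arrays against 10.38, 9.89 and 9.97 on ventral arrays. Every ventral array was at least 4 log2 units above every facial one (-4.92, SE 0.28, 30.3-fold, adjusted p = 2.99e-06). Sfrp2, of the same protein family and a marker of dermal fibroblasts, differed the other way, at 8.97, 10.13 and 9.63 on facial arrays against 5.17, 5.66 and 5.22 on ventral arrays (4.22, SE 0.36, 18.7-fold, adjusted p = 5.94e-05). Facial SKPs thus had more Sfrp2 and less Frzb. The Dickkopf proteins also split: Dkk2 was at 10.10, 9.70 and 8.66 in facial SKPs, against 6.09, 6.79 and 5.85 in ventral SKPs (3.24, SE 0.51, 9.46-fold, adjusted p = 0.00342). Dkk1, which blocks the Wnt coreceptor, was low throughout, at 3.55, 3.21 and 3.46 in facial SKPs, against 4.67, 4.95 and 4.23 in ventral SKPs (-1.21, SE 0.23, adjusted p = 0.0116). Among ligands, Wnt4 rose by 0.91 (SE 0.19, adjusted p = 0.0173), and Wnt6 fell by 0.82 (SE 0.11, adjusted p = 0.00169).

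The calls of Frzb and Sfrp2 held in every alternative. Dkk2 lost its call with the leukocyte covariate (0.0505, range 0.000227 to 0.0505) and Wnt6 likewise (0.0555, range 0.000194 to 0.0555). Dkk1 lost it with that covariate (0.0523) and without ventral array 1 (0.0501) or 2 (0.0518), and its lowest adjusted p was 0.00337. Wnt4 lost it without facial array 1 (0.063) or 2 (0.0587) or ventral array 3 (0.0772), and its lowest was 0.00203. In dorsal SKPs Frzb was at 5.42, 4.62 and 4.49, near the facial level (facial minus dorsal 0.32, adjusted p = 0.643; dorsal minus ventral -5.24, adjusted p = 2.65e-06). Sfrp2 was at 6.25, 6.94 and 7.88 there, between both groups (facial minus dorsal 2.55, adjusted p = 0.00482; dorsal minus ventral 1.67, adjusted p = 0.0196).

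BMP and TGF-beta ligands and antagonists rose in 5 and fell in 0 of 30 genes (16.7% called, against 6.60% of all genes). Their median was 0.30 (all genes 0.014). Bmp3, a ligand that blocks other BMPs, was at 9.44, 8.28 and 8.24 on facial arrays and at 4.29, 5.08 and 4.38 on ventral arrays. The groups lay over 3 log2 units apart (4.07, SE 0.50, 16.8-fold, adjusted p = 0.00089), and the call held in every alternative. Gdf6, a ligand of joints and skull, was at 7.36, 9.19 and 8.31 in facial SKPs, against 5.76, 6.07 and 5.65 in ventral SKPs (2.46, SE 0.63, adjusted p = 0.0394). The other 3 were latent TGF-beta binding proteins, Ltbp1 (1.24, adjusted p = 0.0193), Ltbp4 (0.90, adjusted p = 0.0287) and Ltbp3, which was named after its values were seen. With the leukocyte covariate 1 of the 30 genes rose, Bmp3, and 0 fell. Gdf6 lost its call without facial array 2 (0.12) or 3 (0.0997), without any 1 of the ventral arrays (0.0904 to 0.122), dorsal array 2 (0.0526), MSC array 1 (0.0522), 2 (0.0514) or 4 (0.0528), in the fit of the 9 SKP arrays (0.0774) and with the leukocyte covariate (0.346), with a lowest value of 0.00333. Ltbp1 lost it without facial array 1 (0.0529) or 2 (0.0606) or ventral array 1 (0.0826) or 3 (0.084) and with the covariate (0.159, lowest 0.00301). Ltbp4 lost it without facial array 2 (0.0914) or 3 (0.101) or any 1 ventral array (0.0514 to 0.108), in the fit of the 6 facial and ventral arrays alone (0.0582) and with the covariate (0.253, lowest 0.00484). Of 19 receptors and targets of these pathways 1 rose, Ccn2, and 2 receptors fell, Acvrl1 (-1.54, adjusted p = 0.00984, and 0.0508 without ventral array 1, lowest 0.000385) and Acvr2a (-0.83, adjusted p = 0.0166). Acvr2a had 0.0556 without facial array 2, 0.0518 to 0.0691 without any 1 ventral array and 0.0883 with the covariate (lowest 0.00271).

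Growth factors outside these families split. Areg, a ligand of the EGF receptor, was at 6.96, 8.56 and 7.69 on facial arrays against 5.30, 5.31 and 5.14 on ventral arrays (2.48, SE 0.32, 5.59-fold, adjusted p = 0.0013). Fgf10, a mesenchymal ligand for epithelia, was lower, at 7.90, 8.65 and 7.91 in facial SKPs, against 9.62, 9.91 and 9.80 in ventral SKPs (-1.62, SE 0.24, 3.08-fold, adjusted p = 0.00243). These were the 2 that passed of 30 FGF and EGF ligands and receptors (6.67%, against 6.60% of all genes), and neither overlapped between groups. Fgf10 lost its call with the leukocyte covariate (0.0575, range 0.000209 to 0.0575). Tnfsf11, the cytokine RANKL that drives osteoclast formation, was at 7.63, 7.92 and 7.69 on facial arrays and near background on ventral arrays, at 3.87, 3.83 and 4.36. All 3 facial arrays lay within 0.3 of each other (3.73, SE 0.21, 13.2-fold, adjusted p = 2.99e-06). Of 20 retinoic acid pathway genes 3 rose and 0 fell (median 0.14): the retinal reductase Dhrs3 (2.12, SE 0.31, adjusted p = 0.00253), the retinoic acid synthesising enzyme Aldh1a2 (2.01, SE 0.32, adjusted p = 0.00393) and the receptor Rarg (0.59, SE 0.11, adjusted p = 0.0107). Aldh1a2 was at 5.05, 5.73 and 6.71 in facial SKPs, against 3.72, 4.07 and 3.67 in ventral SKPs. It was highest on facial array 3, as the mean of the macrophage markers was. It was lowest on facial array 1, while that mean was lowest on facial array 2. Its adjusted p was 0.107 with the leukocyte covariate (range 0.000883 to 0.107), and that of Rarg was 0.0866 with it and 0.0533 without ventral array 1 (lowest 0.00136).

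Hedgehog genes fell in 2 of 10 cases (Gli1 and Sufu) and Notch genes in 2 of 20 (Heyl and Dll4), with medians of -0.15 and -0.07. Of all genes, 6.60% were called and 4.36% were called lower. Gli1, the transcription factor and readout of Hedgehog signalling, was at 5.38, 4.48 and 4.87 on facial arrays, against 5.92, 6.03 and 5.55 on ventral arrays (-0.92, SE 0.20, adjusted p = 0.0183). It had 0.0505 without facial array 2, 0.0605 without facial array 3, 0.0785 without ventral array 1 or 2, 0.0561 in the fit of the 6 facial and ventral arrays and 0.154 with the leukocyte covariate (lowest 0.00466). Sufu, its inhibitor, fell by 0.38 (adjusted p = 0.045), with 0.0927 to 0.167 without any 1 facial or ventral array, 0.0554 without dorsal array 2, 0.0508 to 0.0582 without MSC array 1, 2 or 4, 0.0629 with a trended and robust variance model and 0.183 with the covariate (lowest 0.00833). Heyl, a target of Notch, fell by 1.0 (adjusted p = 0.0276), with 0.0931 without facial array 1, 0.076 without facial array 3, 0.12 without ventral array 1, 0.102 without ventral array 3 and 0.291 with the covariate (lowest 0.00747). Dll4, an endothelial Notch ligand, fell by 0.99 (adjusted p = 0.0306), with 0.0548 to 0.0888 without any 1 facial array, 0.124 without ventral array 1, 0.122 without ventral array 3 and 0.104 with the covariate (lowest 0.00843). IGF and PDGF pathway genes had 0 of 19 called.

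Of 37 axon guidance genes 3 passed (8.11%, against 6.60% of all genes) and of 25 cadherins and adhesion molecules 3 passed (12%). Sema3d, a secreted semaphorin that steers axons and neural crest cells, was at 6.70, 6.49 and 6.19 on facial arrays and at 10.74, 11.58 and 10.52 on ventral arrays. It was 22.5-fold lower in facial SKPs (-4.49, SE 0.48, adjusted p = 0.000432). It was the 1 axon guidance gene that fell, and the receptors Ephb1 (2.30, SE 0.34, adjusted p = 0.00268) and Epha7 (1.48, SE 0.38, adjusted p = 0.0389) rose. Cdh6, a cadherin of the neural crest, was at 7.68, 8.30 and 7.82 on facial arrays, against 3.84, 4.57 and 4.26 on ventral arrays (3.71, SE 0.24, 13.1-fold, adjusted p = 6.29e-06). Alcam, an immunoglobulin adhesion molecule, was at 11.01, 11.39 and 11.33 in facial SKPs, against 8.72, 9.26 and 9.37 in ventral SKPs (2.13, SE 0.31, adjusted p = 0.00255). Vcam1, which binds leukocyte integrins, varied more, at 7.43, 9.70 and 8.97 in facial SKPs, against 5.13, 4.39 and 6.11 in ventral SKPs (3.49, SE 0.61, adjusted p = 0.00676). These 3 were the called cadherins and adhesion molecules, and 0 fell. With the leukocyte covariate 2 of the 25 rose and 1 fell. Integrins had 0 of 16 called. With the leukocyte covariate Vcam1 had an adjusted p of 0.0862 (range 0.00267 to 0.0862) and Ephb1 0.0505 (0.000278 to 0.0505). Epha7 lost its call with it (0.206), without any 1 facial (0.0516 to 0.116) or ventral array (0.0963 to 0.124) and without MSC array 2 (0.0511), with a lowest value of 0.00557.

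**Figure D3:**
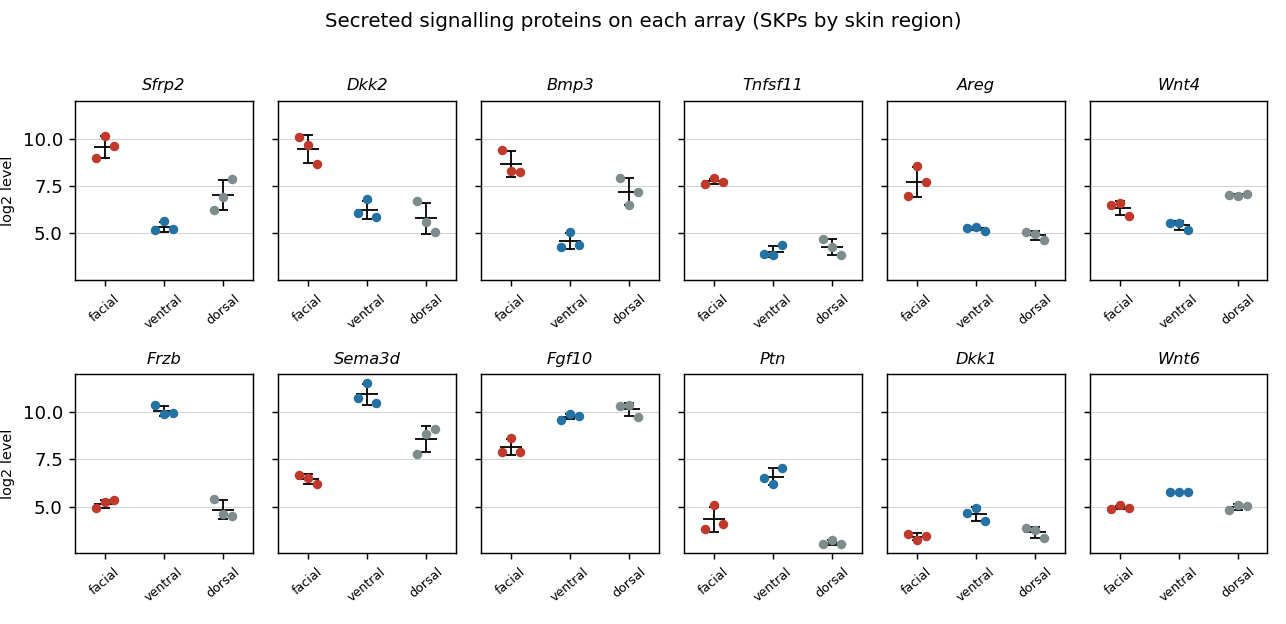
Log2 levels (vertical axis, 1 point per array) of 12 secreted proteins in facial, ventral and dorsal SKPs (3 arrays each), with group means and SD as bars. The upper 6 genes are higher and the lower 6 lower in facial than in ventral SKPs, by up to 4.22 for Sfrp2 and -4.92 for Frzb; Ptn was named after its values were seen.

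Other genes with large differences coded for membrane, cytoskeletal and secreted proteins. Emb, the adhesion protein embigin, was at 9.47, 8.80 and 9.22 on facial arrays and at 3.67, 4.27 and 4.07 on ventral arrays (5.16, SE 0.41, 35.8-fold, adjusted p = 3.57e-05). Cntn6, a contactin of neurons, was at 5.55, 7.25 and 7.30 in facial SKPs, against 2.60, 2.40 and 2.15 in ventral SKPs, with all ventral values below background (4.32, SE 0.36, adjusted p = 5.34e-05). Scin, the actin-severing protein scinderin, was at 8.97, 8.63 and 8.34 in facial SKPs, against 4.23, 4.83 and 4.73 in ventral SKPs (4.05, SE 0.47, adjusted p = 0.000667). None of these overlapped, as the rule for the largest differences required, and their calls held in every alternative. Npy, the peptide neuropeptide Y, was at 11.12, 11.80 and 10.26 in facial SKPs, against 6.01, 9.16 and 6.79 in ventral SKPs (3.74, SE 0.84, adjusted p = 0.0219). Ventral array 2 stood over 2 log2 units above its group for Npy, whose call was lost without facial array 1 (0.0629) or 2 (0.0702) or ventral array 1 (0.0974) or 3 (0.0861) and with the leukocyte covariate (0.0618, lowest 0.0053). Tnn, the matrix protein tenascin N, was at 10.70, 11.12 and 11.41 in facial SKPs, against 5.89, 6.33 and 6.26 in ventral SKPs, yet its adjusted p was 0.0478 (4.92, SE 1.32). Dorsal arrays, which share in the estimate of its spread, had 11.02, 10.31 and 5.44 of Tnn. Its adjusted p was 0.0969 to 0.144 without any 1 facial or ventral array, 0.053 without dorsal array 2, 0.0643 when MSC array 2 was left out, 0.0574 when MSC array 3 was, 0.0502 in the fit of the 9 SKP arrays, 0.0531 with a trended and robust variance model and 0.492 with the leukocyte covariate, with a lowest value of 0.000262.

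Among the genes lower in facial SKPs, Ccr2, the receptor of monocyte chemokines, was below background on facial arrays at 3.08, 2.77 and 3.15, against 6.51, 6.31 and 7.19 on ventral arrays (-3.67, SE 0.21, adjusted p = 2.99e-06). It thus ran against the macrophage markers, which were higher in facial SKPs. Egr2, a zinc finger factor of Schwann cells and hindbrain, was at 6.96, 7.41 and 7.41 in facial SKPs, against 10.56, 10.22 and 10.70 in ventral SKPs (-3.23, SE 0.50, adjusted p = 0.00325). Plxdc1, a plexin domain receptor known from tumour endothelium, was at 5.96, 5.39 and 5.85 in facial SKPs, against 9.22, 8.78 and 8.83 in ventral SKPs (-3.21, SE 0.44, adjusted p = 0.00185). Upk1b, a tetraspanin of the bladder lining, was at 4.84, 4.89 and 5.03 in facial SKPs, against 7.64, 7.93 and 8.08 in ventral SKPs (-2.96, SE 0.23, adjusted p = 2.6e-05). Slc43a3, a purine base transporter, was at 8.04, 7.96 and 8.14 in facial SKPs, against 11.05, 10.94 and 10.60 in ventral SKPs (-2.81, SE 0.36, adjusted p = 0.00125). LRRTM1, a membrane protein of synapses, was at 4.21, 4.09 and 4.49 on facial arrays, against 7.59, 8.12 and 7.27 on ventral arrays (-3.40, SE 0.28, adjusted p = 5.28e-05). Cbln4, a secreted synaptic organiser, was at 3.26, 3.66 and 2.97 on facial arrays, against 6.10, 6.74 and 7.12 on ventral arrays (-3.36, SE 0.26, adjusted p = 2.75e-05). No facial array reached a ventral one for any of these genes, as the rule for the largest differences required. Their calls held in every alternative. Enpp2, the enzyme autotaxin that makes lysophosphatidic acid, was at 7.22, 7.47 and 6.54 in facial SKPs, against 9.66, 10.35 and 10.22 in ventral SKPs (-3.0, SE 0.54, 7.99-fold, adjusted p = 0.00786, and 0.166 with the leukocyte covariate, range 9.72e-05 to 0.166).

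Cyp4b1, Penk and Mfap2 also belonged to the 15 largest falls and lost their calls in some fits. Cyp4b1, a cytochrome P450, was at 4.16, 4.45 and 3.92 in facial SKPs, against 7.63, 7.59 and 7.63 in ventral SKPs (-3.44, SE 0.83, adjusted p = 0.0305). It was tight within both groups, but dorsal array 3 stood at 9.02 against 5.11 and 4.85 on dorsal arrays 1 and 2. Without any 1 facial or ventral array its adjusted p was 0.0606 to 0.0966. It was 0.0678 in the fit of the 9 SKP arrays and 0.378 with the leukocyte covariate. In the fit of the 6 facial and ventral arrays alone it was 0.000258, and without dorsal array 3 it was 4.22e-05, the lowest. Penk, the precursor of enkephalins, was at 9.75, 8.06 and 8.12 in facial SKPs, against 11.37, 11.84 and 11.57 in ventral SKPs (-2.95, SE 0.62, adjusted p = 0.0166). Its adjusted p was 0.0543 without facial array 2, 0.0624 without facial array 3, 0.052 to 0.0635 without any 1 ventral array and 0.0617 with the covariate (lowest 0.0011). Mfap2, a microfibril protein, was at 6.34, 7.09 and 7.44 in facial SKPs, against 10.14, 9.53 and 9.70 in ventral SKPs (-2.83, SE 0.54, adjusted p = 0.0109, and 0.0522 without ventral array 1, lowest 0.00024).

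**Figure D4:**
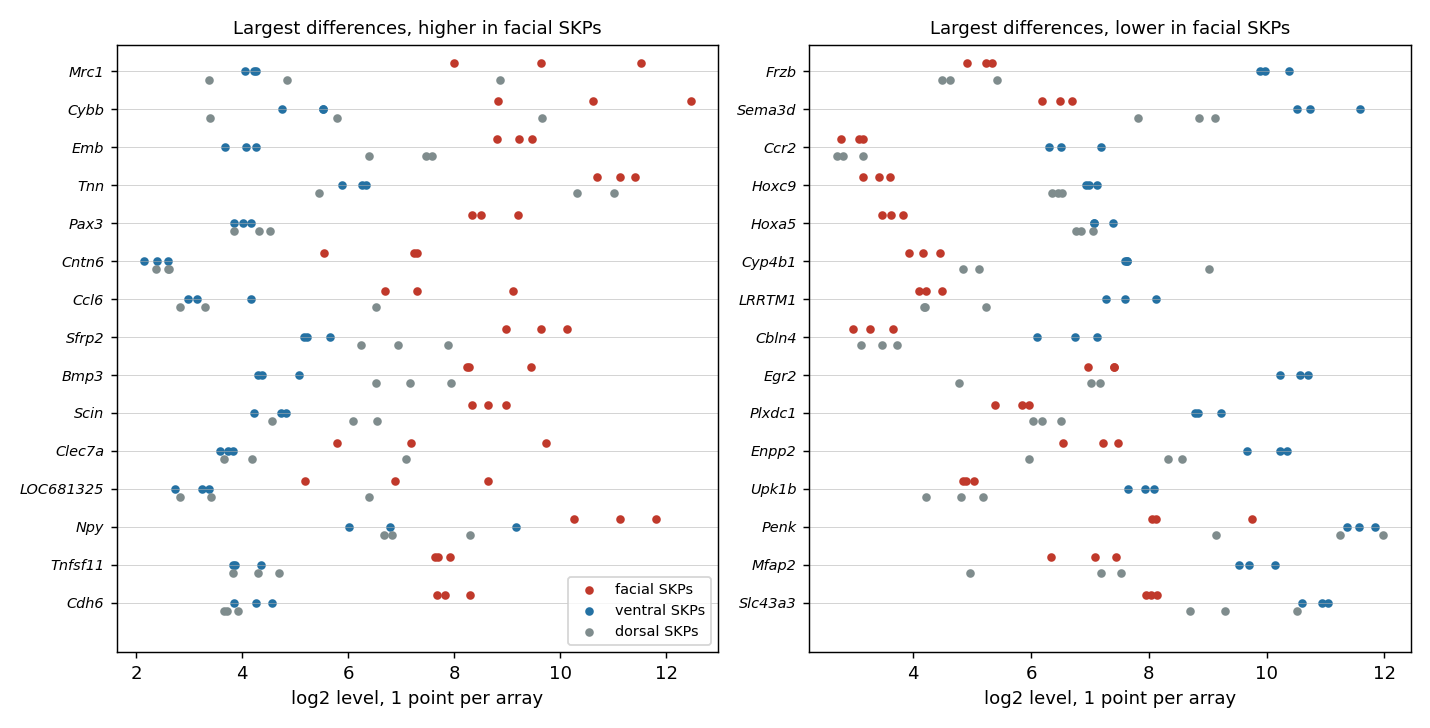
Log2 levels (horizontal axis) on each array for the 15 genes with the largest differences higher (left) and lower (right) in facial than in ventral SKPs, with dorsal SKPs beside them. Facial and ventral points do not overlap in any row, which the rule for these genes required; facial points of Mrc1 spread from 8.0 to 11.52 and those of Tnfsf11 from 7.63 to 7.92.

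Of 33 fibrillar and dermal matrix genes 2 fell and 0 rose (6.06%, against 6.60% of all genes; median -0.20), the collagen cross-linking enzymes Loxl2 and Loxl1. Loxl2 was at 6.72, 6.30 and 6.30 on facial arrays and at 9.24, 8.33 and 8.72 on ventral arrays (-2.32, SE 0.40, adjusted p = 0.00626). Loxl1 was high in both groups, at 10.40, 9.96 and 9.92 in facial SKPs, against 11.26, 10.97 and 11.12 in ventral SKPs (-1.02, SE 0.21, adjusted p = 0.0157). With the leukocyte covariate Loxl2 had an adjusted p of 0.0777 (range 0.000803 to 0.0777) and Loxl1 0.127, and Loxl1 had 0.0592 without facial array 3, 0.0701 without ventral array 1 and 0.0587 without ventral array 3 (lowest 0.00173). Basement membrane genes had 0 of 10 called (1 lower with the covariate) and bone lineage markers 0 of 17. Of 15 cartilage markers 1 rose, the joint lubricant Prg4, at 6.78, 7.53 and 6.72 in facial SKPs, against 4.06, 4.79 and 4.08 in ventral SKPs (2.70, SE 0.64, adjusted p = 0.0276). Its adjusted p was 0.0575 to 0.101 without any 1 facial or ventral array and 0.113 with the covariate (lowest 0.00228).

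Of 31 dermal papilla and sheath markers, 2 rose (Trps1 and Cpm) and 3 fell (Enpp2, Fgf10 and Sox18). That was 16.1% called, against 6.60% of all genes, with a median of -0.02. Trps1, a GATA-type factor of hair follicle mesenchyme, was at 10.94, 10.56 and 10.78 in facial SKPs, against 9.59, 9.85 and 9.76 in ventral SKPs (1.03, SE 0.20, adjusted p = 0.0104). It had 0.0518 without ventral array 1 and 0.19 with the leukocyte covariate (lowest 0.000781). Cpm, a carboxypeptidase, was less stable (1.43, SE 0.38, adjusted p = 0.0472), with 0.116 without facial array 2, 0.156 without facial array 3, 0.0574 to 0.167 without any 1 ventral array, 0.0623 without dorsal array 2, 0.0592 to 0.0658 without any 1 MSC array, 0.0605 with arrays centred on their medians, 0.056 with quantile normalization repeated, 0.0501 with a trended and robust variance model, 0.0537 in the fit of the 6 facial and ventral arrays, 0.0981 in that of the 9 SKP arrays and 0.172 with the covariate (lowest 0.0156). Among 17 actin and serum response genes 2 rose (11.8%), the matrix proteins Ccn1 (1.58, adjusted p = 0.0363) and Ccn2 (1.43, adjusted p = 0.0187). Ccn1 lost its call without any 1 facial or ventral array (0.0512 to 0.131), without MSC array 2 (0.0509), in the fit of the 9 SKP arrays (0.0753) and with the covariate (0.251, lowest 0.00116). Ccn2 lost it without facial array 1 (0.0691), without any 1 ventral array (0.0554 to 0.0772) and with the covariate (0.199, lowest 0.00196). Myocd, the coactivator of smooth muscle genes, was the 1 that rose of 17 smooth muscle and pericyte markers. It was at 6.52, 6.03 and 6.12 in facial SKPs, against 4.50, 4.56 and 4.28 in ventral SKPs (1.78, SE 0.27, adjusted p = 0.00312, and 0.088 with the covariate, range 0.000208 to 0.088). On that list Rgs5, a pericyte gene, fell (-1.55, SE 0.28, adjusted p = 0.00804, and 0.126 with the covariate, range 0.00206 to 0.126).

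Cell cycle genes had 1 of 27 called (3.70%, against 6.60% of all genes), the replication helicase subunit Mcm2. Of the 27 differences 24 were above 0, with a median of 0.53 (all genes 0.014). The mean of the list was 6.66, 6.30 and 6.62 on facial arrays and 6.14, 6.06 and 5.97 on ventral arrays, so the groups did not overlap. Mcm2 was at 7.78, 7.73 and 7.65 in facial SKPs, against 7.14, 6.92 and 6.91 in ventral SKPs (0.73, SE 0.19, adjusted p = 0.044). Its call was lost without any 1 of the facial or ventral arrays (0.0881 to 0.141), without dorsal array 2 (0.0512), MSC array 1 (0.0588) and 4 (0.0591), in the fit of the 9 SKP arrays (0.0507) and in that with the covariate (0.379, lowest 0.00438). Cholesterol synthesis genes had 0 of 16 called.

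Macrophage genes were higher in facial SKPs and varied between facial arrays. Of 29 measured markers 6 rose and 0 fell (20.7% called, against 6.60% of all genes), and all 29 differences were above 0 (median 2.80). Mrc1, the mannose receptor of tissue macrophages, was at 9.64, 8.0 and 11.52 on facial arrays against 4.26, 4.05 and 4.23 on ventral arrays (5.54, SE 1.14, 46.5-fold, adjusted p = 0.0155). Cybb, the catalytic subunit of the phagocyte oxidase, was at 10.62, 8.82 and 12.46 in facial SKPs, against 5.52, 4.75 and 5.52 in ventral SKPs (5.37, SE 1.31, adjusted p = 0.0317). In both, facial array 3 was highest and facial array 2 lowest, an order that 27 of the 29 markers had, against 14.9% of all genes. The leukocyte surface phosphatase Ptprc was at 7.59, 5.77 and 10 in facial SKPs, against 4.43, 4.96 and 5.30 in ventral SKPs, and did not pass (2.89, adjusted p = 0.108). Adgre1, the macrophage marker F4/80, was at 6.33, 3.41 and 8.64 in facial SKPs and below background in ventral SKPs, at 3.12, 2.98 and 2.72 (3.19, adjusted p = 0.079). All facial arrays were above all ventral ones in 24 of the 29, while 36.4% of all genes had no overlap in either direction. Markers above background numbered 29 in facial SKPs and 22 in ventral SKPs. Itgam, C1qa, Fcgr1a and Trem2 were the other 4 called markers. Among the 15 largest rises, the chemokine Ccl6 (4.27, adjusted p = 0.0131), the glucan receptor Clec7a (3.85, adjusted p = 0.0308) and LOC681325 (3.78, adjusted p = 0.0268) had the same order of facial arrays as Mrc1 and Cybb.

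These calls depended on single arrays. The adjusted p of Mrc1 was 0.0584 without facial array 3, 0.0551 without ventral array 1, 0.0556 without ventral array 2, 0.0559 without ventral array 3 and 0.182 with the leukocyte covariate (lowest 0.0011). That of Cybb was 0.0792 without facial array 1, 0.112 without facial array 3, 0.0862 to 0.103 without any 1 ventral array and 0.494 with the covariate (lowest 0.0028). Ccl6 had 0.0507 without facial array 3, 0.0554 without ventral array 1, 0.0587 without ventral array 3 and 0.208 with the covariate (lowest 0.00141). Clec7a had 0.0641 without facial array 1, 0.0871 without facial array 3, 0.0856 to 0.096 without any 1 ventral array and 0.341 with the covariate (lowest 0.00513). LOC681325 had 0.0691 without facial array 1, 0.0892 without facial array 3, 0.0747 to 0.0997 without any 1 ventral array and 0.33 with the covariate (lowest 0.00399). The other 4 called markers had 0.0619 to 0.104 without facial array 1 and 0.0867 to 0.13 without any 1 ventral array, and with the covariate Itgam had 0.53 (lowest 0.00925), C1qa 0.665 (lowest 0.00399), Fcgr1a 0.483 (lowest 0.00786) and Trem2 0.518 (lowest 0.00803). Without facial array 3 the adjusted p was 0.121 for Itgam, 0.0903 for C1qa and 0.0725 for Trem2, and without dorsal array 2 or MSC array 1, 2 or 4 those 3 had 0.0502 to 0.0638. Without MSC array 3 Itgam had 0.0532 and C1qa 0.0571. In the fit of the 9 SKP arrays the adjusted p was 0.0676 for Cybb, 0.0747 for Clec7a, 0.0688 for LOC681325, 0.0938 for Itgam, 0.0979 for C1qa, 0.0714 for Fcgr1a and 0.0859 for Trem2. In the fit of the 6 facial and ventral arrays it was 0.0595 for Itgam, 0.1 for C1qa, 0.0768 for Fcgr1a and 0.0751 for Trem2, and with a trended and robust variance model C1qa had 0.0518. Without facial array 3, 1 of the 29 markers passed, and with the covariate, which is their own mean, 0 passed. Of the 153 genes at least 1 log2 unit higher in facial SKPs, 40 had facial array 3 highest and facial array 2 lowest, and 46 passed with the covariate. Of the 169 at least 1 lower, 80 passed with it. Of the 15 largest rises 8 passed with it (Emb, Pax3, Cntn6, Sfrp2, Bmp3, Scin, Tnfsf11 and Cdh6), and of the 15 largest falls 12. The part of other cells in the remaining differences was not tested.

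Endothelial markers ran the other way. Of 18 measured, 6 fell (Pecam1, Emcn, Sox18, Kdr, Cdh5 and Plvap), 1 rose (Lyve1), and the median was -0.59. That was 38.9% called, against 6.60% of all genes. The mean of the list was 4.58, 4.54 and 4.70 on facial arrays and 5.35, 5.07 and 5.48 on ventral arrays, with 10 genes above background in facial and 17 in ventral SKPs. Pecam1, the endothelial adhesion molecule CD31, was at 3.46, 3.02 and 4.31 in facial SKPs, against 6.65, 5.43 and 6.50 in ventral SKPs (-2.60, SE 0.36, adjusted p = 0.00182). Emcn, the endothelial sialomucin endomucin, was at 2.71, 3.31 and 3.07 against 5.65, 4.85 and 5.92 on ventral arrays (-2.45, SE 0.28, adjusted p = 0.00057). Cdh5, the cadherin of endothelial junctions, was at 3.83, 3.75 and 3.64 in facial SKPs, against 4.99, 4.87 and 4.65 in ventral SKPs (-1.10, SE 0.11, adjusted p = 0.000292). These markers lay below or near background on facial arrays, and ventral array 2 was the lowest ventral array for Pecam1 and Emcn. Lyve1, which lymphatic endothelium shares with macrophages, was at 7.88, 5.94 and 6.78 in facial SKPs, against 4.75, 4.32 and 4.78 in ventral SKPs (2.25, SE 0.37, adjusted p = 0.0042, and 0.101 with the leukocyte covariate, range 0.00095 to 0.101). The calls of Pecam1, Emcn, Sox18, Kdr and Cdh5 held in every alternative. Plvap had 0.0618 without facial array 3, 0.0531 to 0.0657 without any 1 ventral array and 0.091 with the covariate (lowest 0.00136). Prox1, which defines lymphatic endothelium, was near background in both groups, at 3.56, 3.69 and 3.21 in facial SKPs, against 3.59, 3.56 and 3.62 in ventral SKPs.

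Of 19 Schwann and glial markers 2 fell, Egr2 and Cdh19 (10.5%, against 6.60% of all genes), and Cdh19 lay below background in both groups (-0.61, adjusted p = 0.0314). Cdh19 lost its call without any 1 facial array (0.0512 to 0.095), without ventral array 1 (0.108) or 2 (0.0927), in the fits of the 6 facial and ventral arrays (0.0762) and the 9 SKP arrays (0.0709) and with the leukocyte covariate (0.14, lowest 0.0101). Neuronal (18 measured), melanocyte (10), keratinocyte (14), MHC class II (10) and T cell, B cell and mast cell genes (15) had 0 called. Without facial array 3, 3 of the MHC class II genes were called lower, and with the leukocyte covariate 1 was. Of all 14506 genes, 325 were called lower without facial array 3 and 151 with the covariate. The mean of that list was 4.84, 4.7 and 6.71 on facial arrays and 5.12, 5.66 and 5.79 on ventral arrays.

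**Figure D5:**
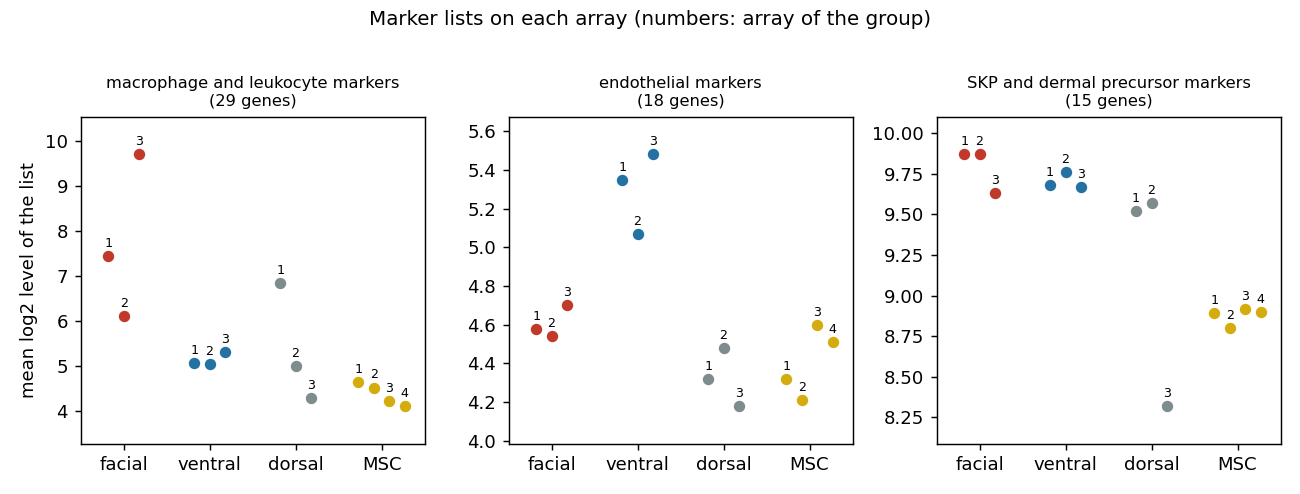
Mean log2 level (vertical axis) of 3 marker lists on each array of facial, ventral and dorsal SKPs and MSCs; the number beside a point is its array. Macrophage and leukocyte markers spread from 6.11 to 9.71 on facial arrays and lie between 5.05 and 5.30 on ventral arrays, endothelial markers are higher on ventral arrays, and the means of SKP and dermal precursor markers lie close together in SKPs apart from dorsal array 3.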

How the data were processed

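Levels in 13 cultures come from Affymetrix Rat Gene 1.0 ST arrays. The authors deposited log2 levels from RMA (which corrects background, normalizes quantiles and summarises probes), run in Affymetrix Expression Console per the submitters' processing notes. The notes also name limma, and their versions are not given in the sources consulted. Of 29215 probe sets, 15310 carried 1 gene symbol, 323 several and 13582 none in the platform annotation, and the last 2 kinds were not named. Symbols were updated through Entrez identifiers (15279) or accessions (6), 25 were kept and 2 changed. In 527 genes with several probe sets the highest mean was used. Array medians were 4.91 to 5.01.

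Group means over all 13 arrays were fitted with limma 3.58.1 in R 4.3.3, with eBayes, 9 residual degrees of freedom and two-sided tests. P-values were adjusted by Benjamini-Hochberg over 14506 genes with a threshold of 0.05. Low genes were kept. Named genes were the 15 largest called differences of each direction with at least 1 log2 unit, no overlap between arrays and a level above background (25th percentile of the group's means), up to 4 called members per direction of each list, position list members, 11 identity genes (Sox2, Nes, Snai2, Twist1, Ngfr, Pax3, Vcan, Crabp1, Cd44, Thy1, Vcam1) and homeobox or T-box genes with the largest differences. All measured members of the macrophage, endothelial and SKP marker lists were also open to naming, called or not and beyond the limit of 4. Other names outside that rule are marked. The members and the 48 lists (963 genes, 815 measured) were chosen with earlier results of these data known. The labels do not say whether replicate numbers pair the arrays, and correlations of same-numbered deviations were -0.06, -0.01 and 0.09. With 3 arrays a group these values cannot exclude a pairing. Other settings were the arrays fitted, scaling, filters, variance model, a replicate block, leaving out each array and the leukocyte covariate. The fit was tested on simulated data. Promoter sequences are RefSeq's (GRCr8), and motifs were searched on both strands with Python 3.11.15.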

Additional observations from a re-analysis of the deposited data

Results flagged for a closer look

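Probe sets that the comparison did not use, because the annotation gives them no symbol or several or because another probe set of the gene was taken, also differed between facial and ventral SKPs. In a fit over every probe set of the table, 548 of 13905 such probe sets (3.94%) passed limma's test at an adjusted p under 0.05, 175 higher and 373 lower in facial SKPs. Their differences ran from -4.37 to 4.31 (log2). They carry no single gene name here, so they are given as a count.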

How the results depend on the processing

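The count of 958 called genes (326 higher, 632 lower in facial SKPs) was 1932 (736 and 1196) with only the 6 facial and ventral arrays, 2441 (1015 and 1426) with array weights, 224 (73 and 151) with the leukocyte covariate, 322 (153 and 169) with a log2 difference of at least 1 added, and 1460 (992 lower) over all probe sets of the table, an alternative added after the data were seen. Leaving out 1 array gave 390 to 1416 called genes, 122 to 518 higher and 266 to 898 lower, with the lowest counts without ventral array 1 or 3 and the highest without dorsal array 3. The replicate number as a block gave 678 (231 and 447); the labels give no pairing, and facial array 3 alone correlated best with the ventral array of its own number. The block ended 23 of 116 named calls, counted here alone. Counts with the other settings lay within 1.5 times. Of 103 called genes named by the rule, 39 were called with the leukocyte covariate and 55 to 103 with 1 array left out. Of the list genes, 85 were called, 188 with array weights, 185 with the 6 arrays alone, 34 with the covariate and 44 to 123 with 1 array left out. Over 116 called genes, with those named after their values were seen, 46 were called in every alternative and 0 changed direction. Uncalled genes given with values turned with the covariate: Ptprc (2.89, then -0.36), Pdgfra (0.58, then -0.02), Junb (0.16, then -0.08), Dlx3 (-0.11, then 0.10), Dlx5 (-0.07, then 0.10), Prox1 (-0.10, then 0.08) and Thy1 (0.51, then -0.23). Dlx1 (0.10) was -0.05 without ventral array 2, and without facial array 3 Dlx3 was 0.08 and Prox1 0.03. Twist1 (0.09) was -0.16 with the covariate and -0.06 to 0.25 with 1 array left out, at -0.00019 without ventral array 3. Calls made up of higher genes were 34.0%, 25.8% with arrays centred on their medians and 41.6% with array weights. The fits that leave out an array have fewer samples, and the cause of the other changes was not tested. The number of isolates, 3 a group, limits the precision.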

Other observations

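Several genes outside the lists, named after their values were seen, also differed. Mab21l2, a factor of eye and body wall development, was at 7.20, 8.12 and 7.65 on facial arrays, against 4.68, 4.36 and 4.53 on ventral arrays (3.14, SE 0.23, limma adjusted p = 1.55e-05). Dio2, the deiodinase that activates thyroid hormone, was at 11.56, 11.65 and 11.05 on facial arrays, against 7.33, 8.57 and 7.69 on ventral arrays (3.55, SE 0.46, adjusted p = 0.0013). Both were apart on every array. Amelx, the enamel protein amelogenin, was at 5.02, 5.99 and 4.69 on facial arrays and below background on ventral arrays, at 3.5, 3.40 and 3.71 (1.70, SE 0.26, adjusted p = 0.00325). Kera, the corneal proteoglycan keratocan, differed by 1.60 (SE 0.25, adjusted p = 0.00343). On the lower side were Car2, a carbonic anhydrase (-2.79, SE 0.35, adjusted p = 0.00112), the junction protein Jam2 (-2.63, SE 0.29, adjusted p = 0.000535), the growth factor Ptn (-2.27, SE 0.30, adjusted p = 0.00134) and Cbln2, of the same family as Cbln4 (-1.97, SE 0.25, adjusted p = 0.00123). These 8 calls held in every alternative. Agtr2 (-1.73, adjusted p = 0.00259) and Nxph3 (-1.61, adjusted p = 0.0148), also named after their values were seen, were lower too. Both lost their calls with the leukocyte covariate (0.0641 and 0.0886). Nxph3 lost it also without facial array 1 (0.0519), ventral array 1 (0.0681) or ventral array 3 (0.0656).

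Some immediate early genes were also named after their values were seen, and not from a list. Dusp1, a MAP kinase phosphatase, was at 10.35, 10.70 and 10.42 on facial arrays, against 8.51, 8.36 and 8.46 on ventral arrays (2.04, SE 0.14, adjusted p = 1.06e-05). Nr4a2, an orphan nuclear receptor, rose by 1.24 (SE 0.17, adjusted p = 0.00182). Both calls held in every alternative. Nr4a3, of the same family, rose by 1.53 (adjusted p = 0.0264), and lost the call without facial array 2 (0.0618) or any 1 ventral array (0.0753 to 0.0979), with a lowest adjusted p of 0.00468. Fos (0.85, adjusted p = 0.14), Jun (0.63, adjusted p = 0.0578), Egr1 (0.41, adjusted p = 0.533) and Junb (0.16, adjusted p = 0.744) did not pass, nor did Atf3 (-0.91, adjusted p = 0.281), Egr3 (-0.89, adjusted p = 0.0897) and Ier2 (-0.13, adjusted p = 0.742). Egr2, given above among the largest falls, passed in the other direction (-3.23, adjusted p = 0.00325). In dorsal SKPs Dusp1 was at 10.45, 10.05 and 10.54, and Nr4a2 at 7.72, 7.47 and 8.05.

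On the remaining lists, the called genes can be read against 6.60% of all genes. Of 20 dermal fibroblast subtype markers 2 rose (Sfrp2 and Pi16) and 1 fell (Cthrc1; 15% called), of 26 matrix proteases and inhibitors 2 fell (Adamts4 and Mmp14; 7.69%), and of 20 skeletal muscle markers 1 rose (Tnnt3) and 2 fell (Chrna1 and Myh3; 15%). Of 17 MAP kinase feedback genes 1 rose (Spred2) and 1 fell (Etv4; 11.8%). Fat lineage markers had 1 lower of 18 (Cebpb), hypoxia and glycolysis genes 1 lower of 24 (Pfkp), interferon-stimulated genes 1 lower of 25 (Ifi44l), Wnt targets 1 lower of 13 (Dkk1) and inflammatory cytokines 1 higher of 28 (Ccl3). Apart from Sfrp2, each of these calls was lost in at least 1 alternative, all of them with the leukocyte covariate (0.0523 to 0.595). Chrna1, Adamts4 and Etv4 lost it in that setting alone. Tnnt3 lost it also without ventral array 3 (0.0602), and the others without ventral array 1 (0.0501 to 0.153) and further arrays. Pi16, Mmp14, Myh3, Cebpb, Ifi44l and Ccl3 lost it also in fits of fewer groups (0.0563 to 0.0894), and Spred2 with arrays centred on their medians (0.064).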
